A study of Mus musculus with 2 samples.

Results

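The transcript described here is GFP, the message of a reporter gene placed under the promoter of MERVL in mouse embryonic stem cells. It was found by its symbol in the gene lists deposited with both libraries, where it is 1 of 55415 features and the only one without a mouse Ensembl identifier. The series holds 2 single-cell libraries of the reporter line, labelled MERVL GFP positive in 1 case and negative in the other, whose cells carry the same reporter and an H2B-mIFP label for following cells. The labels give no passage, culture medium or number of clones, and they do not say how cells were assigned to a library by their GFP. The study asked what becomes of cells that enter the 2-cell-like state. Each group had 1 library and the labels name each library as its own batch, so group and batch cannot be told apart and no difference in this text has a replicate or a test.

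MERVL is an endogenous retrovirus whose long terminal repeat is switched on in the 2-cell mouse embryo, when the embryo's own genes are first transcribed. A small share of embryonic stem cells in culture pass in and out of a similar state, called 2C-like. In that state the factor Dux binds MERVL repeats and nearby genes, and the Zscan4 genes, copies of an Eif1a-like translation factor (Eif1ad) and other 2-cell genes are transcribed together. GFP protein is stable, whereas the GFP message reports transcription closer to the time of sampling.

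The positive library had 4603 cells, of which 4596 were kept, with a median of 29554.5 UMIs (molecule counts) and 5554.5 genes per cell. The negative library had 3832 cells, all kept, with a median of 39099.5 UMIs and 5846 genes. The median mitochondrial share was 2.56% and 1.60%. The libraries shared 3 cell barcodes, and the cells with those barcodes had 0, 9 and 1 GFP UMIs where they came from the positive library and 0 where they came from the negative. All 19 genes of a pluripotency list were detected in more than 5% of positive-library cells, and their summed level was 16027 CPM (counts per 1000000 UMIs of the group) in the negative library.

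GFP separated the libraries almost completely as a sum but not cell by cell. In the positive library 28299 GFP UMIs made 205 CPM, which placed the reporter 759th among all features there. In the negative library 71 GFP UMIs made 0.454 CPM (95% Poisson interval 0.355 to 0.573). The ratio of 451 had an exact conditional interval of 357 to 577, which covers counting error only. Intervals of shares take cells of 1 library as trials, and no interval given here covers variation between libraries. On the CPM + 1 scale the log2 ratio was 7.14, rank 11 of the 8042 genes with enough signal. The genes ranked above GFP were Gm21761, Gm21818, Gm20767, Eif4a3l1, B020031M17Rik, Platr31 and the Eif1ad copies Eif1ad15, Eif1ad8, Eif1ad7 and Eif1ad6. Gm21761, for example, had 1173 CPM in the positive and 0.30 CPM in the negative library.

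GFP per cell ran from 0 to 65 UMIs in the positive library. A cell at the lower quartile held 1 GFP UMI, the median cell 3, the upper quartile 9 and the 90th percentile 16. No GFP UMI was seen in 21.3% of cells, 14.3% had 1, 22.3% had 2 to 4, 19.5% had 5 to 9 and 16% had 10 to 19. Another 4.55% had 20 to 29, and the 96 cells with 30 or more held 13.1% of all GFP UMIs. In the negative library 3776 of 3832 cells had none, 47 had 1, 8 had 2 to 4 and 1 had 6. The libraries overlapped at low counts and at 0, and no negative-library cell exceeded 6 UMIs.

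Because cells differed in depth, each was thinned to 10000 UMIs drawn without replacement, and 194 cells of the positive and 8 of the negative library fell below that depth and were not used. At equal depth 61.9% of the 4402 positive-library cells held a GFP UMI (exact binomial interval 60.4 to 63.3), against 78.7% of cells before thinning. In the negative library 18 of 3824 cells did, or 0.471% (0.279 to 0.743), against 1.46% before thinning. The share in the library labelled negative is given beside that of the positive library, and whether it reflects transcription in those cells was not tested. Empty droplets were not analysed here, so the level of free RNA within the positive library itself was not measured.

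The spread of GFP at equal depth was wider than counting alone gives. The mean was 2.3 UMIs, the variance 10.3 and their ratio, the Fano factor, 4.49, where a Poisson count has a ratio of 1. A Poisson of the same mean would leave 9.98% of cells at 0, whereas 38.1% were at 0. A negative binomial with the same mean and variance, with size 0.661, would leave 37.1% at 0. The highest 10% of cells held 43.6% of the thinned GFP UMIs and the highest 25% held 73.6%. The largest share of cells was at 0, and shares fell with the UMI number with no marked second peak up to the highest cell, at 24 UMIs. In the negative library the Fano factor was 1.20.

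**Figure D1:**
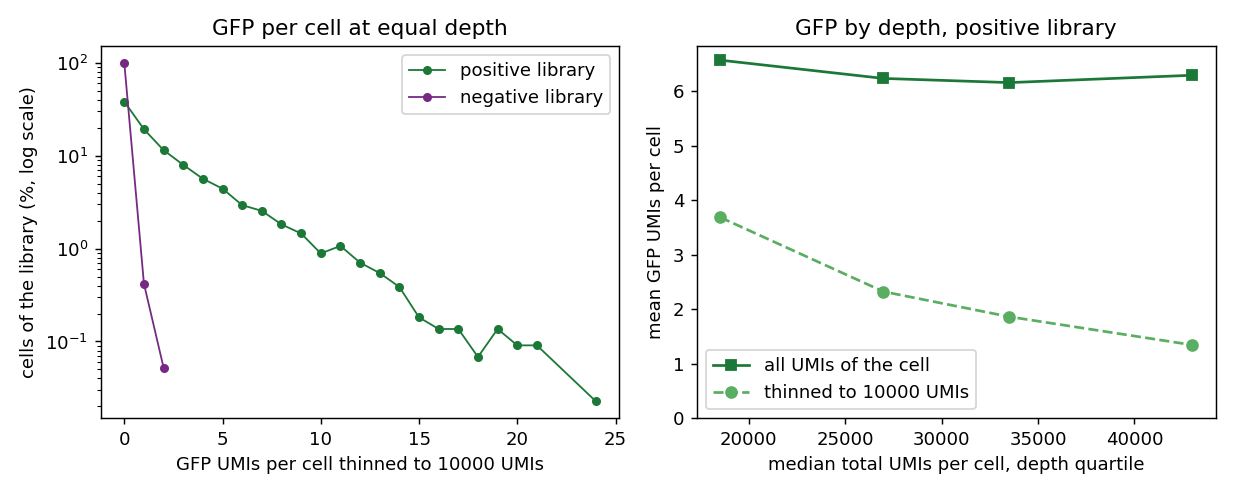
Left, the share of cells (percent, log scale) against GFP UMIs per cell thinned to 10000 UMIs, for 4402 cells of the positive library (green) and 3824 of the negative library (purple); the positive library reaches 24 UMIs and the negative library 2. Right, mean GFP UMIs per cell against the median total UMIs of each depth quartile of the positive library, with all UMIs (squares, 6.16 to 6.57) and after thinning (circles, 3.68 falling to 1.35).

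GFP molecules per cell did not scale with the total in the positive library. Over quartiles of depth, with median totals of 18532, 26985.5, 33518 and 42978.5 UMIs, mean GFP before thinning was 6.57, 6.23, 6.16 and 6.29 UMIs. The number of GFP molecules thus changed little from the shallowest to the deepest cells. After thinning, which expresses GFP per equal total, the means were 3.68, 2.32, 1.86 and 1.35 and the shares of cells with GFP were 75.7%, 62.9%, 58.1% and 50.7%. Across cells the Spearman rank correlation (rho) of GFP with the total was -0.006 before thinning and -0.27 after. Depth therefore moved with every class of cells formed from thinned GFP, and values within quartiles of depth are given for the main lists further on.

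Positive-library cells were grouped by thinned GFP UMIs into 1679 cells with 0, 846 with 1, 854 with 2 to 3, 683 with 4 to 7 and 340 with 8 or more. These classes are ranges of 1 continuous measure: 350 cells had 3 UMIs and 248 had 4, on either side of the line that sets off the cells called GFP-high here (4 or more). The class at 0 was not free of the message, since its cells held 1.07 GFP UMIs on average before thinning. From the class at 0 to the class at 8 or more, the median total fell through 32565, 31266.5, 29864.5, 25777 and 23240.5 UMIs. Genes detected at equal depth were 3217 at the median in the class at 0 and 3065 in the highest, and the median mitochondrial share was 2.46% and 2.69%.

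The Zscan4 family, zinc finger proteins of the 2-cell embryo that act on telomeres and chromatin, was higher in each class with more GFP. Its 9 members summed to 182 CPM at 0 GFP UMIs, 421 CPM at 1, 564 CPM at 2 to 3, 893 CPM at 4 to 7 and 1370 CPM at 8 or more. The negative library had 0.812 CPM. Even cells with no thinned GFP UMI were thus far above the negative library. Those cells still held 1.07 GFP UMIs on average before thinning, and free RNA within the positive library was not measured. All 9 members passed the filter on low values and were higher in GFP-high cells than in cells at 0 by at least 2 times on the CPM + 1 scale. In that comparison 373 of 8196 genes, or 4.55%, were higher and 120, or 1.46%, were lower. Zscan4d (ENSMUSG00000090714, chr7:11161374-11166159 on mm10, minus strand) went through 45.8, 107, 144, 228 and 344 CPM over the classes. Zscan4c, at 33.1 to 237 CPM, and Zscan4f, at 3.03 to 21.5 CPM, kept the same order. Members of the family are near-identical copies that may share reads, which makes the level of any 1 member uncertain.

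The Eif1ad copies, which encode proteins like the initiation factor that helps ribosomes find start codons, were likewise higher in each class with more GFP. They summed to 713, 1396, 2331, 4229 and 7301 CPM over the classes, and to 2.15 CPM in the negative library. Of 17 copies in the files 11 passed the filter and all 11 were higher in GFP-high cells. A Zscan4 member or Eif1ad copy could pass through the GFP-high class alone, so both counts are descriptions. Eif1ad8 (ENSMUSG00000079034, chr12:87514316-87518266, plus strand) had 234, 454, 737, 1265 and 2291 CPM. Eif1ad15 had 179 CPM at 0 and 1962 CPM at 8 or more, and Eif1ad3 had 53.5 and 523 CPM. These copies too are near-identical to one another.

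Other genes of the 2-cell programme had the steepest increase of the 3 lists, from 1032 CPM at 0 GFP UMIs through 2237, 4053 and 6958 CPM to 14857 CPM at 8 or more, against 12.2 CPM in the negative library, or 2.17 CPM without Ddit4l. Of 28 in the files 20 passed the filter, with the same caution about the GFP-high class, and all 20 were higher in GFP-high cells. Eif4a3l1, a copy of a helicase of the exon junction complex, had 111, 195, 491, 833 and 1894 CPM. Zfp352, a zinc finger gene of the early embryo, had 3.78 CPM at 0 and 62.7 CPM at 8 or more. Duxf3, the listed copy of the Dux factor itself, had 1.35, 2.01, 3.46, 4.90 and 3.86 CPM and did not reach the filter.

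The promoters of genes that move with GFP were searched for GATTNAATC, letters found in the published binding motif of Dux, with N for any base. The letters read the same on both strands. Promoters were the 250 bases before to 50 after each start in RefSeq on GRCm38.p6. Of 32851 promoters 88, or 0.268%, held a match. Of the other 2-cell genes 16 of 32 had a promoter in the table, 17 in all, and 5, or 29.4%, held a match, namely AF067061, Duxf3, Eif4a3l1, Gm21761 and Gm4340. That list was written as genes linked to MERVL and includes Duxf3 itself. Its share therefore depends on how the list was chosen, and it was not tested. For Zscan4 it was 0 of 4 promoters, and for the 15 genes whose counts across cells were most like those of GFP (named further on) 0 of 9, from 5 genes. Promoters of the Eif1ad copies were not searched. The promoters of Gm21761 and Eif4a3l1 are shown, with the match in capitals, because these 2 had the highest levels in GFP-high cells among the 5 genes with a match.
Gm21761, chr13:119913419-119913718, minus strand, match beginning 125 bases before the start: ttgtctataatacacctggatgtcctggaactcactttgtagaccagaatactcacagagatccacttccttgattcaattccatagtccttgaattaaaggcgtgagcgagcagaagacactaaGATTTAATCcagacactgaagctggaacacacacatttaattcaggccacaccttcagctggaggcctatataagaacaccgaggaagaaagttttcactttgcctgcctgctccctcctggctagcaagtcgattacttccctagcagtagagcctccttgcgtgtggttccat
Eif4a3l1, chr6:136327289-136327588, plus strand, match beginning 116 bases before the start: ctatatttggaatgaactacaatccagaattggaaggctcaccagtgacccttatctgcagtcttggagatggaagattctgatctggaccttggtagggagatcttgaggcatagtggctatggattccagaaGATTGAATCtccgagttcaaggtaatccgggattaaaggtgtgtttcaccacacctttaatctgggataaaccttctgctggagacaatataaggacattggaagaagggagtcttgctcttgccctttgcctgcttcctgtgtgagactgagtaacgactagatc
A match describes letters in these windows and not binding in these cells. Gm21761 had 309, 750, 1238, 2262 and 5165 CPM over the GFP classes.

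**Figure D2:**
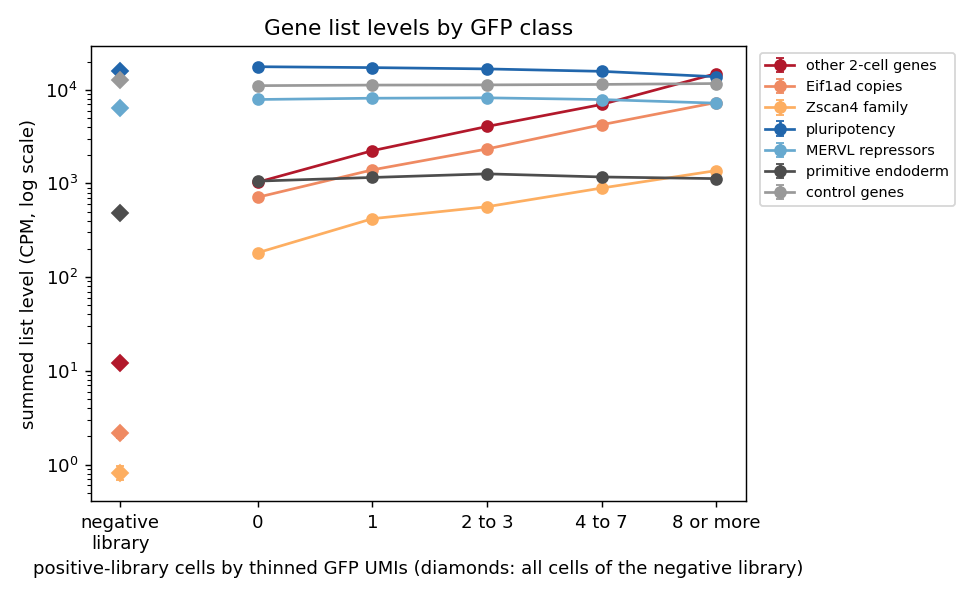
Summed CPM (log scale) of 7 gene lists in positive-library cells grouped by thinned GFP UMIs (circles) and in all cells of the negative library (diamonds); bars are 95% Poisson intervals, mostly smaller than the symbols. The 3 lists of 2-cell genes are higher in each class with more GFP (Zscan4 182 to 1370 CPM), while the pluripotency sum goes from 17603 to 13767 CPM and the control genes from 11051 to 11645 CPM.

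Cell by cell, rho between thinned GFP and the summed list was 0.42 for the Zscan4 family, 0.53 for the Eif1ad copies and 0.53 for the other 2-cell genes, over 4402 cells of 1 library. The control list of genes active in all cells had 0.05 and the primitive endoderm list 0.01. Sparse counts limit how high such values can be. Where each cell's UMIs were drawn into separate sets of 5000, GFP in one set against GFP in the other gave 0.58. The same measure between sets was 0.47 for GFP with Eif1ad, 0.45 with the other 2-cell genes and 0.35 with Zscan4. Zscan4 against Eif1ad gave 0.64 and Eif1ad against itself 0.83. The values of GFP with either family were below that of the families with each other, and GFP with itself was below Eif1ad with itself. These values share cells, depth and library, and none was tested.

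Presence of the messages overlapped in part. A thinned GFP UMI was found in 69.8% (68.1 to 71.4) of the 2979 cells with a Zscan4 UMI and in 45.3% (42.6 to 47.9) of the 1423 cells without. Conversely, Zscan4 was found in 76.3% of the 2723 cells with GFP and 53.6% of cells without. Both messages were present in 2079 cells, GFP alone in 644, Zscan4 alone in 900 and neither in 779. Eif1ad copies were found in 95.1% of cells with GFP and 86.2% of cells without. Every one of these shares lies far above the 0.471%, 0.340% and 0.994% of negative-library cells with a GFP, Zscan4 or Eif1ad UMI at the same depth. With 1 library per group and free RNA not measured, what this difference reflects was not tested.

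Read from the other side, GFP was higher in cells with more Zscan4, by smaller steps at the upper end. Cells with 0, 1 to 3, 4 to 9, 10 to 19 and 20 or more thinned Zscan4 UMIs had 105, 179, 346, 424 and 470 CPM of GFP. The shares of those cells with a thinned GFP UMI were 45.3%, 57.9%, 82.8%, 88.8% and 89.5%. By Eif1ad UMIs, GFP was 71.0 CPM in cells with 0, 89.9 CPM with 1 to 3, 217 CPM with 4 to 19, 373 CPM with 20 to 49, 483 CPM with 50 to 99 and 544 CPM with 100 or more. Median totals fell along both series, from 33154 to 19514 UMIs and from 33805 to 18738 UMIs. GFP did not reach 0 at the low end. The 842 cells with no Zscan4 UMI and at most 2 Eif1ad UMIs had 67.6 CPM of GFP (64.6 to 70.6), and 36.3% of them held a thinned GFP UMI. Among them 39 cells, or 4.63% (3.31 to 6.28), were GFP-high, at 437 CPM.

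Within narrower sets of cells the tie to each family differed. In the 1423 cells with no Zscan4 UMI, rho of GFP with Eif1ad was 0.30. In the 1227 cells with 20 or more Eif1ad UMIs, rho was 0.03 with Zscan4 and 0.20 with Eif1ad, the latter close to the 0.17 of the control list in the same cells. In the 1553 cells with at most 2 Eif1ad UMIs, rho with Zscan4 was 0.11. Over quartiles of depth, from shallowest to deepest, rho with Zscan4 was 0.38, 0.37, 0.35 and 0.32, and with Eif1ad 0.51, 0.52, 0.44 and 0.42. For the other 2-cell genes it was 0.54, 0.51, 0.43 and 0.36, and for the control list 0.13, 0.06, 0.08 and 0.12. Restricting the range of a family narrows what rho can show, and the differences between these sets were not tested.

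The pluripotency transcripts as a sum went down slightly as GFP went up, through 17603, 17217, 16674, 15709 and 13767 CPM over the GFP classes. Much of that sum is 1 gene, Dppa5a, at 11821 CPM in the lowest and 10174 CPM in the highest class, and a log2 ratio of -0.13 between all GFP-high cells (10809 CPM) and the lowest class. The Spearman rho of GFP with the sum was -0.19, and in quartiles of depth -0.19, -0.17, -0.10 and -0.02 from shallowest to deepest. It turned to 0.034 in the 1423 cells with 0 Zscan4 UMIs and was -0.065 without thinning. Of the 19 genes, all of which passed the filter, 0 were higher and 1, Utf1, was lower by at least 2 times in GFP-high cells. Over all genes tested the shares were 4.55% and 1.46%, so counts of 0 and 1 in a list of this size are near the background. The log2 ratio of Utf1 was -1.03 under CPM and -0.91 under a median-of-ratios scaling, where it no longer passes the size rule. The median log2 ratio of the 19 genes was -0.47, against -0.11 for all genes tested. That scaling shifts the median of all genes to 0.004, so log2 ratios in this comparison are best read against the -0.11 of all genes. With it 85.8% of the genes past the size rule were higher in GFP-high cells, against 75.7% under CPM.

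The genes of the list did not move alike. Sox2, the partner of Oct4 at pluripotency enhancers (ENSMUSG00000074637, chr3:34650405-34652461, plus strand), had 540, 486, 422, 321 and 219 CPM over the GFP classes and a rho of -0.29. Zfp42, the Rex1 marker of naive cells, had 1064, 973, 817, 676 and 444 CPM and -0.27. Klf4, a Krüppel-like factor of naive pluripotency, had 356 CPM at 0 and 171 CPM at 8 or more, with a rho of -0.22, and Utf1, a chromatin protein of undifferentiated cells, 201 and 89.6 CPM, with -0.21. Those are the 4 of the 19 genes of the list at -0.2 or below, where 60 of 9686 genes, or 0.619%, lay over all genes measured. Pou5f1, which encodes Oct4, had 308, 286, 267, 230 and 211 CPM. Nanog, which guards against primitive endoderm fate, had 401, 413, 430, 441 and 359 CPM and a rho of -0.04. Sall4, a zinc finger factor, was the exception in the sign of rho, with 207, 239, 290, 307 and 341 CPM and a rho of 0.17. Dppa4 was near 0 under both scalings and its sign changed between them, at -0.09 and 0.03.

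The pluripotency genes were also compared in cells split by thinned UMIs of both GFP and Zscan4. The 4 sets were 779 cells with neither GFP nor Zscan4 UMIs, 172 with 0 GFP and 4 or more Zscan4 UMIs, 128 with 4 or more GFP and 0 Zscan4 UMIs, and 580 with 4 or more of both. Their median totals were 34090, 27395, 28593 and 22596 UMIs. A thinned count of 0 did not mean that the message was absent: with all UMIs counted, GFP was at 25.02, 72.5, 531 and 674 CPM in these sets and Zscan4 at 42.1, 1307, 59.9 and 1877 CPM. In that order Sox2 had 584, 266, 466 and 213 CPM. Zfp42 had 1135, 522, 941 and 446 CPM, and Klf4 had 376, 210, 344 and 161 CPM. For these genes the low values were in the sets with Zscan4, and the GFP-only cells lay between those sets and the cells with neither. The sum of the pluripotency list was 17586, 13652, 18273.5 and 13187 CPM, highest in the GFP-only cells. Dppa5a, most of that sum, had 11582, 9772, 12513 and 9593 CPM. Tbx3, at 478, 384, 639 and 348 CPM, was also highest in them. Utf1 had 230, 98.9, 146 and 76.9 CPM, low in all 3 sets with either message and lowest with both. Nanog was at 382, 363, 415 and 378 CPM, and Sall4 at 189, 271, 307 and 316 CPM, higher in all 3 sets with either message.

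**Figure D3:**
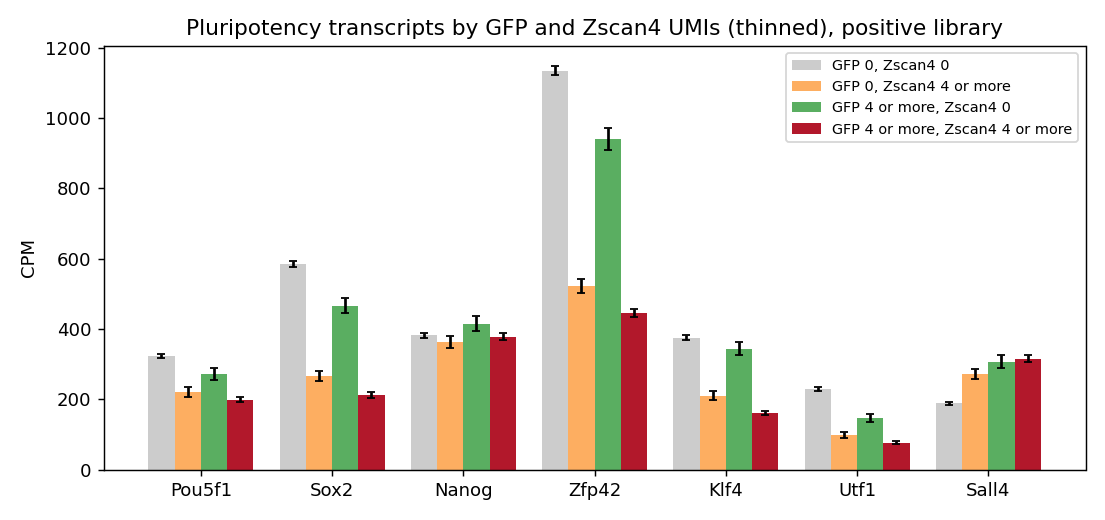
CPM of 7 pluripotency genes in 4 sets of positive-library cells split by thinned GFP and Zscan4 UMIs (779, 172, 128 and 580 cells, in the order of the legend); bars are summed levels with 95% Poisson intervals. Sox2, Zfp42 and Klf4 are lowest in the sets with 4 or more Zscan4 UMIs, with Zfp42 at 522 and 446 CPM there against 1135 and 941 CPM without.

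Over all genes, GFP-high cells with 0 thinned Zscan4 UMIs differed from cells with neither in 252 of 8083 genes that were higher (3.12%) and 94 that were lower (1.16%). Zscan4-high cells with 0 thinned GFP UMIs, whose GFP of 72.5 CPM (65.3 to 80.3) was itself above the 25.02 CPM of the cells with neither, differed in 557 of 8457 genes that were higher (6.59%) and 144 that were lower (1.70%). These comparisons share the cells with neither message. In the first, 0 of 19 pluripotency genes passed the size rule in either direction, with a median log2 ratio of -0.08 against -0.06 for all genes. In the second, 3 of 19 were lower, with a median of -0.57 against 0.01. Of the genes that reached the filter, 9 of 9 Eif1ad copies and 18 of 18 other 2-cell genes were higher in GFP-high cells even with 0 thinned Zscan4 UMIs, and could again have passed the filter through those cells alone. Gm21761 showed this with 109 CPM in cells with neither, 2109 CPM with Zscan4 alone, 909 CPM with GFP alone and 5154 CPM with both. The difference between the comparisons was not tested.

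Genes most like GFP were found by rho over the 9686 genes with a UMI in at least 5% of thinned positive-library cells. The median rho was -0.02 and the range -0.33 to 0.50. At 0.2 or above were 234 genes, or 2.42%, and at -0.2 or below 60 genes, or 0.619%. Of the Zscan4 family 6 of the 8 members measured this way were at 0.2 or above, as were 11 of 11 Eif1ad copies, 20 of 20 other 2-cell genes and 0 of 19 pluripotency genes. Eif1ad8 came first at 0.50, followed by Eif1ad15 and Eif1ad3 at 0.45. The best-placed Zscan4 member was Zscan4-ps2, at rank 50 with 0.33, and Zscan4d was at rank 54 with 0.32.

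Genes outside the lists made up much of the leading 15. Zfp560, a zinc finger gene (chr9:20345136-20385177, minus strand), had rho 0.45 and 132, 248, 458, 699 and 1190 CPM over the GFP classes. Glrx2, a mitochondrial glutaredoxin, had 0.44 and 190, 301, 517, 803 and 1320 CPM. Its level in the negative library was 90.1 CPM, so it was not silent in the cells labelled negative. Prex2, an exchange factor for Rac, had 0.43, and Lonp2, a peroxisomal protease, 0.43. Others outside the lists were Platr31, Arhgef26, Gm13228 and Ccser1, with rho between 0.41 and 0.43. Gm20767 and Gm21818, of the other 2-cell genes, and Eif1ad7 were also among the 15, with rho between 0.42 and 0.44. Steps between neighbours in this order are small, and the order was not tested.

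At the other end were mostly abundant genes. The lowest were Rps27l at -0.33, Sumo2, a small protein modifier, at -0.32, Hspe1, the mitochondrial co-chaperonin, at -0.32 and Arid5b, a DNA-binding cofactor, at -0.31. Rps27l went through 1563, 1422, 1288, 1171 and 1002 CPM over the GFP classes. Arid5b showed the larger ratio, from 166 CPM at 0 to 42.8 CPM at 8 or more. Sox2 at -0.29 and Zfp42 at -0.27 were the pluripotency genes among the lowest 10, with Anp32b, Txnl4a, Hmgn1 and Lsm4.

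**Figure D4:**
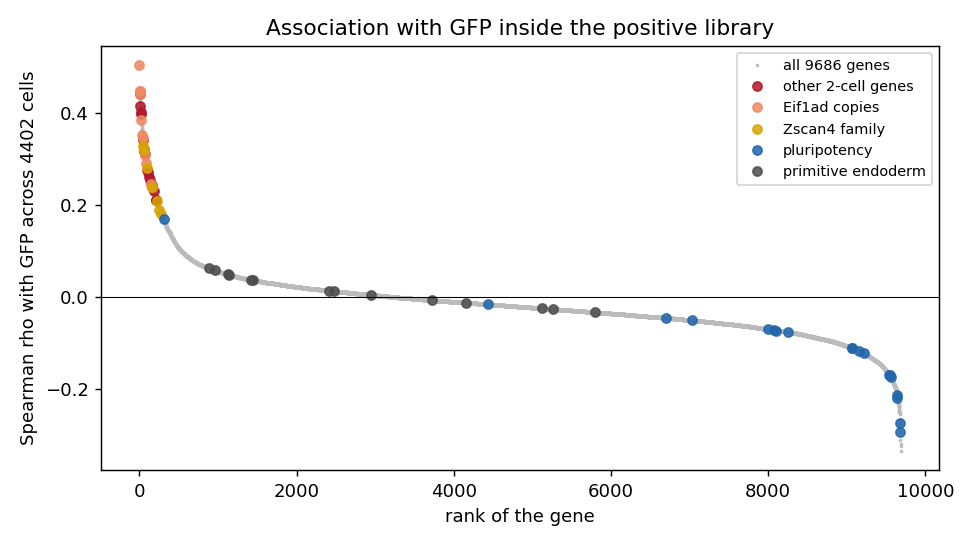
Spearman rho with GFP across 4402 thinned positive-library cells against rank for 9686 genes (grey), with list members in colour. Eif1ad copies, Zscan4 members and other 2-cell genes lie at the left end (highest 0.50), pluripotency genes lie mostly at the right end (Sox2 at -0.29) apart from Sall4 at 0.17, and primitive endoderm genes lie between, with rho close to 0 (highest 0.06, Dab2).

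Factors known to act on MERVL were listed separately. Of 9 activators in the files 7 passed the filter, and 2, Nelfa and Spz1, were higher in GFP-high cells by the size rule. Over all genes tested the share was 4.55%. Spz1 and Duxf3 are also in the list of other 2-cell genes, so Spz1 was already counted there. Spz1 had 4.77 CPM at 0 and 43.1 CPM in GFP-high cells, and so passed the filter through the GFP-high class alone. Nelfa, a subunit of the negative elongation factor complex, had 189, 353, 638, 991 and 1682 CPM and a rho of 0.40, rank 20. Dppa2, which activates Dux, had 172 CPM at 0 and 325 CPM in all GFP-high cells, a log2 ratio of 0.91 that falls short of the size rule, and 363 CPM at 8 or more. Trp53 went the other way, at 260 CPM at 0 and 162 CPM at 8 or more. Of the 29 repressors in the files 28 passed the filter and 0 passed the size rule in either direction, against 4.55% higher and 1.46% lower over all genes tested, so a count of 0 in a list of this size is near the background. Their rho ran from -0.20 for Mga, a partner of Max in a polycomb complex, to 0.18 for Trim28, which directs silencing of retroviral repeats. Trim28 had 672, 766, 852, 886 and 873 CPM. The log2 ratios of Ncl, Rybp, L3mbtl2 and Pcgf6 were close to 0 and changed sign with the scaling, as for Rybp at -0.01 under CPM and 0.10 under median of ratios.

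Cells of both libraries were clustered without using GFP, and markers allowed a name for 2 of the 6 clusters. Cluster 3, 2C-like, held 1300 positive-library cells and 1 of the negative library. Its GFP was 409 CPM (402 to 416) and 86.4% of its cells had a thinned GFP UMI. Cluster 4, primitive endoderm-like, with Dab2, Gata6 and laminin and collagen genes leading, held 664 and 220 cells of the libraries. GFP there was 255 CPM in the positive library, with 72.4% of cells, and 1.19 CPM in the negative library, with 1.36% of cells. A cluster drawn almost wholly from 1 library may reflect that library, which applies to cluster 3 and also to clusters 1 and 2.

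Unnamed cluster 2, with Nanog among its leading genes, held 2157 positive-library cells at 114 CPM of GFP and 48.4% of cells, and 82 negative-library cells at 2.34 CPM and 2.44%. Cluster 1 was made mostly of negative-library cells. Its 110 positive-library cells had 21.7 CPM and 22.7%, and its 3016 negative-library cells 0.350 CPM and 0.365%, with median totals of 33895 and 39846 UMIs. Cluster 5, led by genes of low oxygen such as Ndufa4l2 and Bnip3, had 55.1 CPM and 32.0% in 150 positive-library cells. Cluster 6, led by Krt8 and Krt18, had 108 CPM (84.9 to 135) but 14.3% of its 21 cells, with an interval of 3.05 to 36.3. These intervals take cells of 1 library as trials, and the clusters were formed with genes that move with GFP. Differences between clusters were therefore not tested. The ratio of the messages differed too. Each GFP UMI came with 14.7 Eif1ad UMIs in cluster 3, 8.95 in cluster 4 and 3.33 in cluster 2, and with 3.61, 1.26 and 0.887 Zscan4 UMIs. In clusters 1, 5 and 6 it came with 6.45, 4.36 and 2.77 Eif1ad UMIs and 2.25, 1.33 and 1.04 Zscan4 UMIs. The ratios thus did not follow the GFP level of the clusters.

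**Figure D5:**
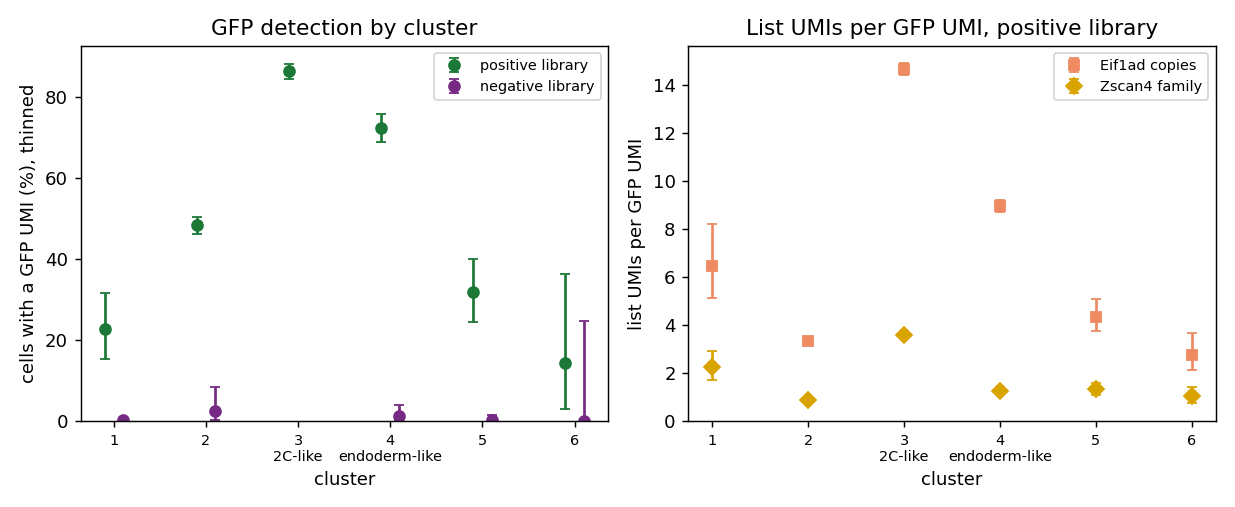
Left, percent of cells with a thinned GFP UMI by cluster for the positive (green) and negative (purple) libraries, with exact binomial 95% intervals, clusters with fewer than 10 cells of a library left out; the 2C-like and endoderm-like clusters stand highest in the positive library, at 86.4% and 72.4%. Right, Eif1ad and Zscan4 UMIs per GFP UMI in the positive library with exact 95% intervals; Eif1ad is highest in the 2C-like cluster, at 14.7.

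The rho between messages was also taken within clusters of the positive library. Inside cluster 3, which these genes helped to form and whose range in them is therefore narrowed, rho of GFP was 0.07 with Zscan4 and 0.24 with Eif1ad. With the 2-cell lists left out of the clustering the values were 0.17 and 0.32. Inside cluster 4 it was 0.39 and 0.52, and inside cluster 2, the largest of the positive library, 0.16 and 0.25. Cluster 1 had -0.09 and 0.07, and cluster 5 had 0.03 and 0.18. These differences were not tested. The endoderm-like cells of the positive library were split into 183 with 0 thinned GFP UMIs, 277 with 1 to 3 and 204 with 4 or more, with median totals of 34202, 29856 and 22971.5 UMIs. Gata6, the factor that starts primitive endoderm, had 491, 365 and 214 CPM in these sets, and Sox17 had 161, 62.1 and 37.0 CPM. Pdgfra, a receptor of that lineage, had 142, 114 and 70.1 CPM. Dab2 had 472, 563 and 463 CPM and Sparc, a matrix protein, 1305, 1357 and 1466 CPM, so not all endoderm genes followed one order. The cells with most GFP in this cluster had 10998 CPM of the other 2-cell genes, against 1316 CPM in those with none. Doublets were not removed, and their part in cells with both sets of messages was not tested.

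Negative-library cells with GFP were examined as a set. They numbered 56 and carried 71 GFP UMIs, with a median total of 42851 UMIs against 39046 in the rest. Zscan4 UMIs were found in 4 of the 56, or 7.14% (1.98 to 17.3), and in 31 of the other 3776, or 0.821% (0.558 to 1.16). Eif1ad UMIs were found in 7, or 12.5% (5.18 to 24.1), against 3.28% (2.74 to 3.9). The endoderm list stood at 759 CPM against 483 CPM. The cell with 6 GFP UMIs had 42153 UMIs in all, 0 of Zscan4, 0 of Eif1ad and 267 of the endoderm list. Per GFP UMI the negative library held 1.79 Zscan4 UMIs (1.33 to 2.43) and 4.73 Eif1ad UMIs (3.65 to 6.20), against 2.36 and 10.2 in the positive library. The other 2-cell genes stood at 26.8 UMIs per GFP UMI (21.1 to 34.5) in the negative library against 17.6 in the positive, but 1 gene, Ddit4l, held 1564 of their 1903 UMIs in the negative library. Without Ddit4l the values were 4.77 (3.69 to 6.26) and 16.9. Over all cells the ratios of Eif1ad and of the other 2-cell genes apart from Ddit4l were thus lower in the negative library beyond counting error. That sum mixes unlike cells. In clusters 1, 4 and 5 Eif1ad UMIs per GFP UMI were also lower in the negative library. They were 2.84, 3.18 and 1.44 there, from 44, 11 and 9 GFP UMIs, against 6.45, 8.95 and 4.36 in the positive. In cluster 2 the direction was the opposite, with 20.1 Eif1ad UMIs per GFP UMI (9.52 to 51.0) and 14.0 Zscan4 UMIs (6.54 to 35.7) in the negative library against 3.33 and 0.887 in the positive, from 7 GFP UMIs in 82 cells. Whether cells or free RNA carried these molecules was not tested.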

How the data were processed

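The deposited matrices hold whole-number counts for 55415 features, 55414 of them Ensembl genes. They are read as UMIs because cells carry 16-base barcodes and the labels give a single-cell source; per the labels' protocols, total RNA and bulk-type library kits were used, and molecule counting and cell capture are not stated. Per the submitters' processing notes, FastQC 0.11.2, Trim Galore 0.6.4, STAR 2.7.6a and mm10 were used. Gene positions are from GENCODE M21, where 52133 identifiers matched.

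Cells were kept with at least 1000 UMIs, 500 genes and at most 20% mitochondrial UMIs. CPM used the summed UMIs of all kept cells. Classes, shares and rho used cells thinned to 10000 UMIs (seed 1). The size rule needed 10 CPM in either class, 50 UMIs in total and a ratio of CPM + 1 of at least 2 . Poisson, Clopper-Pearson and conditional intervals are at 95%. Clusters used 2000 variable genes without GFP, 30 components, 15 neighbours and Leiden at resolution 0.5. No test was run, since each group had 1 library and cells are not replicates. Doublets were not called or removed.

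Named genes are GFP, Zscan4, Eif1ad and pluripotency members with 50 UMIs, the highest and lowest of the other lists by rho, and the 15 highest and 10 lowest of all genes by rho. Which of these are given as examples, and all other genes named, among them Gm21761, Eif4a3l1, Zfp352, Duxf3, Dppa2 and the genes of the endoderm-like cluster, were picked with their values in view. Of these genes, 1 is not reported here. The reporter, the lists and the rules were chosen with earlier results of these data known. Alternatives changed depth, filters, thresholds, scaling, seed, cells and clustering. Steps were tested on simulated data. Tools were scanpy 1.11.5 with leidenalg 0.10.2 and scikit-learn 1.9.0, and scipy 1.17.1 and numpy 2.4.6 under Python 3.11.15. TMM scaling used edgeR 4.0.16 (R 4.3.3), and figures matplotlib 3.10.9.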

Additional observations from a re-analysis of the deposited data

How the results depend on the processing

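Of 95 alternatives over these results, 56 stayed within the interval or tolerance of the value given (0.05 for rho, 1.5 times for a count of genes), 38 moved and 1 changed sign. The sign change was the rho of GFP with the pluripotency list, 0.034 in cells with 0 Zscan4 UMIs. That rho was also -0.14 at 20000 UMIs, -0.065 without thinning, -0.28 in the 143 cells with 0 endoderm UMIs and -0.018 in the deepest quartile. The share of positive-library cells with GFP was 48.4% at 5000 UMIs, 70.9% at 20000, 78.7% without thinning, 42.6% at 2 or more UMIs and 31.2% at 3 or more. The same settings gave 0.183%, 0.812%, 1.46%, 0.0523% and 0% in the negative library, and 59.8%, 74.4%, 80.8%, 51.8% and 39.4% of Zscan4 cells. With 0 of 3824 cells, a share of up to 0.0964% (exact binomial) is allowed. The Spearman rho with Zscan4 was 0.35 at 5000 UMIs, 0.37 in the middle cells by depth and 0.32 in the deepest quartile. The Spearman rho with Eif1ad was 0.47 at 5000 UMIs, 0.48 in the middle cells, 0.42 in the deepest quartile and 0.30 in cells without Zscan4. The 373 higher genes became 225 at a ratio of 4, 632 at 1 CPM and 643 without a filter. The 120 lower genes became 35 with GFP-high at 2 UMIs, 300 at 8 UMIs, 0 at a ratio of 4, 241 at 1 CPM, 241 without a filter and 70 under median of ratios. Clustering without the 2-cell lists put the share in the 2C-like cluster at 83.1%; this, the shallowest and deepest quartiles, the gene counts in the middle cells by depth, the shares in both named clusters and the other 2-cell UMIs per GFP UMI, with and without Ddit4l, were added after seeing the data. Without Ddit4l the other 2-cell UMIs per GFP UMI were 4.77 in the negative and 16.9 in the positive library. The ratio between libraries ran from 368 (TMM) to 513 (mean of each cell's CPM), within its counting interval. Causes of these changes were not tested, apart from shares, which fall with fewer UMIs or a higher minimum by construction. No paired analysis was possible because the groups hold 1 library apiece. At 10000 UMIs, 1 UMI is the smallest level a cell can show, so a cell at 0 may hold the message.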

Other observations

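The trophoblast list, which marks the outer lineage of the early embryo, stood at 134 CPM in cells with 0 thinned GFP UMIs, then 74.3, 81.2, 99.6 and 59.2 CPM, with no steady order. Tfap2c, a factor of trophoblast and germ cells, carried the steadiest change, at 25.9, 19.9, 11.6, 9.53 and 6.39 CPM with a rho of -0.16. Krt8 and Krt18, the keratins that lead cluster 6, showed no steady order either. Krt8 had 39.7, 19.8, 28.0, 37.9 and 18.1 CPM over the GFP classes and Krt18 had 49.8, 21.9, 28.5, 38.4 and 23.9 CPM, with rho of 0.02 and 0.003.

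Among genes of primed pluripotency, Otx2 had 10.1 CPM at 0 GFP UMIs and 2.29 CPM at 8 or more, and Dnmt3b 71.8 and 40.5 CPM. Sox3 went the other way, at 10.5, 15.1, 21.3, 29.1 and 43.1 CPM. Of the 8 fibroblast genes, Thy1 alone reached 10 CPM in either class compared, at 7.0 CPM with 0 GFP UMIs and 13.2 CPM with 4 or more. These genes were chosen after their values were seen.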
